A study of Rattus norvegicus with 24 samples.

Results

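The genes described here encode the respiratory chain, the set of enzymes in the inner mitochondrial membrane that pass electrons to oxygen and make ATP. Members were taken by gene symbol. Every named locus whose symbol begins as a subunit of NADH dehydrogenase (Nduf), succinate dehydrogenase (Sdh), cytochrome bc1 (Uqcr), cytochrome c oxidase (Cox4 to Cox8) or ATP synthase (Atp5) was included, and a symbol with several loci was represented by the locus with the highest mean over the 24 libraries. This gave 86 of the 26641 named loci. Of these, 39 were sorted by symbol to complex I, 4 to complex II, 8 to complex III, 17 to complex IV and 14 to complex V. The remaining 4 were kept apart from the subunits. They were Sdhaf1, Sdhaf2 and Atp5sl, which encode assembly factors, and Atp5s, which encodes coupling factor B.

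The libraries came from adult male Sprague-Dawley rats killed 3 months after a lateral fluid-percussion injury, a model of traumatic brain injury (TBI), or a sham operation. Each group had 6 rats, and perilesional cortex and ipsilateral thalamus were sequenced from every rat, which gave 24 polyA RNA libraries. The labels name no allele, and the TBI animals were chosen among a larger cohort for an MRI sign of chronic inflammation around the lesion, so that they do not stand for every injured rat. The tissue was dissected whole, and in such samples fewer cells of a type and less RNA per cell cannot be told apart.

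Complex I takes electrons from NADH and complex II takes them from succinate, and both hand them by way of ubiquinone to complex III. Cytochrome c carries them on to complex IV, where oxygen is reduced, while complexes I, III and IV pump the protons that drive ATP synthesis by complex V. In the brain most of this ATP is spent on ion pumping and synaptic transmission. All subunits of complex II are encoded in the nucleus, whereas the other complexes also hold subunits made from mitochondrial DNA, which are not among the members.

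The deposited value for each locus was a normalized count, that is, a number of sequenced fragments divided by a size factor of the library. The libraries held between 30568926 and 54608921 fragments, so that 3 fragments, taken as the floor of detection, corresponded to between 2.06 and 3.76 normalized counts. A locus entered a comparison when its mean was at least 10. In each comparison 80 of the 86 members did. The 6 others were Ndufs6, Ndufb3l, Ndufb4l1, Cox6c-ps1, Cox7a2l2 and Cox8c. Cox8c and Cox6c-ps1 were listed at 0 in every library, and no locus of the 6 exceeded 13.8 normalized counts in any library. Log2 changes were fitted on log2(normalized count + 1) with limma over all named loci, and a change was called at a Benjamini-Hochberg adjusted p under 0.05.

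Nearly all respiratory chain genes had lower mean levels in TBI animals than in sham-operated controls, in small steps. In the perilesional cortex, 36 of 80 members fell (limma, adjusted p under 0.05), 1 rose and 43 were not called. Over all loci tested in the cortex, 14.9% fell and 14.3% rose. In the ipsilateral thalamus, 54 of 80 members fell, none rose and 26 were not called, and over all loci 20.9% fell and 14.5% rose. Of the members with a higher mean in TBI thalamus, 0 had an unadjusted p under 0.05 by limma and 0 were called by edgeR. The median log2 change of the members was -0.16 in the cortex, where all loci had a median of -0.0096, and -0.25 in the thalamus, where all loci had a median of -0.023. The mean was lower in TBI animals in both regions for 70 of the 80 members.

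The counts moved with the scaling between libraries. With upper quartile scaling 16 members fell in the cortex, where 8.05% of all loci then fell, and 31 in the thalamus, where 12.8% of all loci then fell. The share of called loci that were lower went from 50.9% with the deposited scaling to 30.1% with upper quartile scaling in the cortex, and in the thalamus from 59.05% to 45.7% with TMM and 39.98% with upper quartile scaling. The members' median minus that of all loci tested was -0.15 for the cortex and -0.22 for the thalamus on the log2 scale. A scaling shifts all loci of a library nearly alike, so this distance hardly moves with it by construction.

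The single member that rose was Ndufa4l2, in the cortex. Of the members that fell, 31 fell in both regions, 23 were called in the thalamus alone and 5 in the cortex alone. The 5 were Atp5h, Atp5i, Cox6c, Cox7a2 and Ndufb3. The Atp5h locus spanned 596 bases, under 1 kb, and may not report the gene. A call in 1 region alone is no test of a difference between regions, which is given further on. No member reached a 1.5-fold change besides its adjusted p in either region.

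Groups of libraries rarely separated fully. In the cortex the highest TBI value was below the lowest sham value for 5 of 80 members, a share near the 5.45% of all loci. These were Cox7b, Ndufb8, Ndufb9, Ndufv2 and Sdha. In the thalamus this held for 23 members, where 10.7% of all loci did so. The 23 were Ndufs1 to Ndufs4, Ndufv1, Ndufa9, Ndufa10, Ndufb5, Ndufb8, Ndufb9 and Ndufb10 of complex I, Sdha of complex II, Uqcrc2 and Uqcrfs1 of complex III, Cox5a, Cox5b, Cox6a1, Cox6b1 and Cox7b of complex IV, and Atp5a1, Atp5b, Atp5g1 and Atp5j of complex V.

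The count in the cortex was smaller without 3 libraries that stood apart. Ttr, which encodes transthyretin and is abundant in choroid plexus, was at 28302 normalized counts in the cortex library of TBI rat 45, 21088 in that of sham rat 26 and 10044 in that of sham rat 34, and between 226 and 1887 in the other 9. With these 3 left out, an alternative chosen after the data were seen, 8 of 79 members fell in the cortex. All loci then fell in 6.06% of cases, and the members' median was -0.115. A fit with fewer libraries can also make fewer calls, although without each single library in turn the cortex count ran from 27 to 44. In the thalamus, leaving out the 3 libraries of highest Ttr kept 40 of 79 members as fallen with a median of -0.231, where 15.3% of all loci fell. How much choroid plexus tissue contributed to the members' values was not tested.

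**Figure D1:**
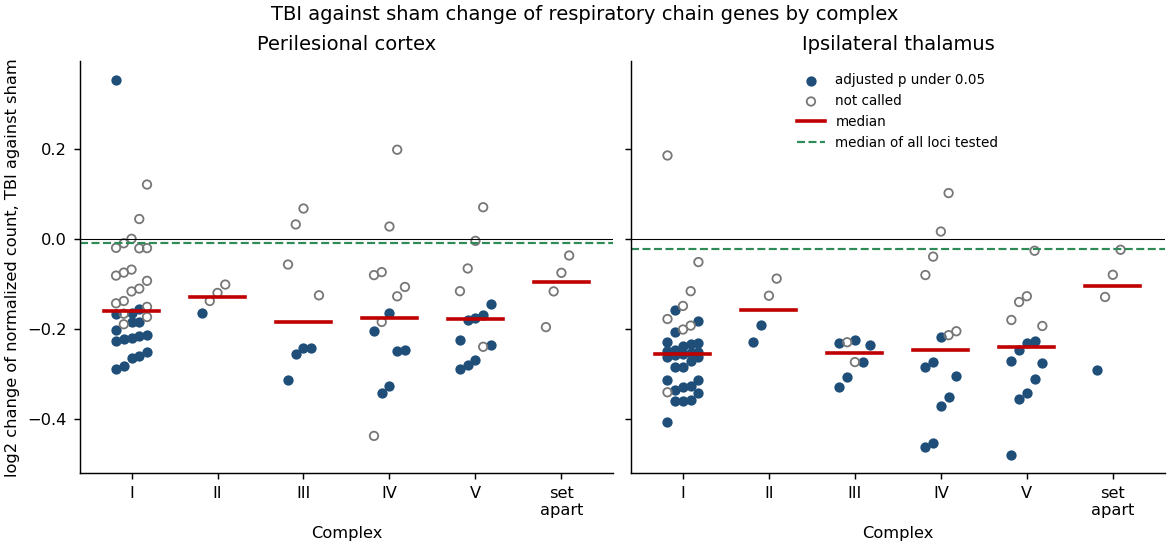
Log2 change between TBI and sham animals for each tested member, arranged by complex and region, with 1 point per gene, a bar at the median of each complex, filled points for called genes and open points for the rest. Most points lie below 0 in both regions, and the complex medians lie between -0.13 and -0.18 in the cortex and between -0.16 and -0.25 in the thalamus.

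The promoters of the members were searched for letters bound by 4 regulators of nuclear genes for mitochondrial proteins, since many members moved the same way. RefSeq promoters on the GRCr8 assembly, which run from 250 bases before a gene's start and are 300 bases long, were found for 74 of the 86 members by symbol. Both strands were read, and matches of different motifs were counted separately. The NRF1 letters GCGCANGCG occurred in 17 of 74 member promoters (23.0%) and in 6.26% of all 27457 promoters. The ETS letters CCGGAAG, the core read by GABP, occurred in 22 (29.7%) and in 9.22% of all promoters. The YY1 letters AAGATGGCG were in 10 (13.5%) against 1.93%, and the ERR letters TNAAGGTCA in 2 (2.70%) against 1.15%. By complex, the NRF1 letters were found in 9 of 35 promoters of complex I, 1 of 4 of complex II, 1 of 6 of complex III, 1 of 13 of complex IV and 5 of 13 of complex V. A match is a description of these letters and not of binding.

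One stretch is shown for each complex, 5′ to 3′ on the strand of the gene and with the matches in capitals, for members with values given below. Only members with a match could be shown. Among other members with values below, Ndufv1, Uqcrfs1, Cox5a, Cox6b1, Atp5b and Atp5d had no match to any motif searched. The same held for Ndufa4, Ndufa4l2, Sdhc, Uqcr10, Cox6b2, Cox7b, Cox8b and Atp5s. Members that fell and members that did not were not compared for these letters. The stretch of Ndufs1 (chr9:72073786-72073816, minus strand) and that of Cox5b (chr9:46417811-46417836, plus strand) hold an ETS match, that of Ndufs1 on the opposite strand. The stretches of Sdha (chr1:30764452-30764527, plus strand) and Uqcrc1 (chr8:118468148-118468204, plus strand) each hold a pair of NRF1 matches, and that of Atp5j (chr11:37375167-37375224, minus strand, named Atp5pf by RefSeq) holds a YY1 and an ETS match.
Ndufs1: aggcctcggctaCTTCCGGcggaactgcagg
Sdha: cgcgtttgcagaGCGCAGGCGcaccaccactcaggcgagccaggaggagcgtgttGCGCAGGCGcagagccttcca
Uqcrc1: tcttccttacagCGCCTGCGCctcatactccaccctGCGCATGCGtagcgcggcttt
Cox5b: ctctgtctgttcCCGGAAGtgcatct
Atp5j: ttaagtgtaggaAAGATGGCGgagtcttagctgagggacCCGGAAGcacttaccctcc

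Complex I is the entry point for NADH and has the most subunits. In the cortex, 16 of its 36 tested genes fell and 1 rose, with a median log2 change of -0.16. In the thalamus, 28 of 36 fell and none rose, with a median of -0.25. The Ndufs and Ndufv genes, most of which encode the part of the enzyme that binds NADH and holds the iron-sulfur clusters, fell in 5 of 10 cases in the cortex (median -0.18) and in 8 of 10 in the thalamus (median -0.28). The Ndufa genes fell in 6 of 14 and 11 of 14 cases (medians -0.15 and -0.26), and the Ndufb and Ndufc genes, mostly of the membrane arm, in 5 of 12 and 9 of 12 (medians -0.15 and -0.24).

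Ndufs1 encodes the largest iron-sulfur subunit and had the lowest log2 change of complex I in the cortex. In sham cortex its normalized count ranged from 8987 to 10344 with a median of 9858, and in TBI cortex from 7514 to 9406 with a median of 7734. In the thalamus it ranged from 11185 to 13288 (median 12118) in sham and from 8971 to 10635 (median 9567) in TBI animals. The groups did not overlap in the thalamus, and in the cortex only TBI rat 63, at 9406, reached into the sham range. The log2 change was -0.29 (SE 0.06, limma adjusted p = 0.00216) in the cortex and -0.34 (SE 0.06, limma adjusted p = 0.000353) in the thalamus, or 0.819 and 0.789 times the sham level. The gene was listed on chromosome 9 from 69728735 to 69762079, in the coordinates of the authors' files.

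Ndufv1, on chromosome 1 from 226124945 to 226130037, encodes the flavoprotein that binds NADH. Its cortex values were 6200 to 7584 (median 7118) in sham and 6100 to 7156 (median 6762) in TBI animals. Its thalamus values were 7056 to 8340 (median 7740) in sham and 5442 to 6534 (median 5856) in TBI animals. The cortex groups overlapped almost wholly, while the thalamus groups stood apart. In log2 terms the change was -0.07 (SE 0.06, limma adjusted p = 0.406) in the cortex and -0.36 (SE 0.06, limma adjusted p = 0.000266) in the thalamus.

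Ndufb9, which encodes an accessory subunit of the membrane arm, had the lowest log2 change of complex I in the thalamus. It ranged from 5732 to 7117 (median 6030) in sham thalamus and from 3890 to 5142 (median 4655) in TBI thalamus. In the cortex it ranged from 5606 to 6419 (median 5889) in sham and from 4462 to 5450 (median 4957) in TBI animals. The groups did not overlap in either region. The log2 change was -0.41 (SE 0.07, limma adjusted p = 0.000553) in the thalamus and -0.26 (SE 0.05, limma adjusted p = 0.00205) in the cortex.

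Ndufa4l2, sorted to complex I by its symbol, is a relative of Ndufa4 that is known to be induced by low oxygen. It had between 76.6 and 115 normalized counts (median 97.2) in sham cortex and between 106 and 138 (median 131) in TBI cortex. In the thalamus the ranges were 97.9 to 163 (median 133) in sham and 123 to 184 (median 140) in TBI animals. TBI values reached above the sham range in the cortex, but the groups overlapped in both regions. On the log2 scale the change was 0.35 (SE 0.12, limma adjusted p = 0.033) in the cortex and 0.19 (SE 0.14, limma adjusted p = 0.316) in the thalamus. The cortex call was lost when any one of 7 of the 12 libraries was left out (sham rats 26, 38 and 50, TBI rats 24, 45, 52 and 56), with changes between 0.29 and 0.40. The interval listed for this locus was shared with another locus. Ndufa4 itself, sorted to complex I by its symbol although its product is a subunit of complex IV, fell in both regions, by 0.21 in the cortex (limma adjusted p = 0.0176) and by 0.28 in the thalamus (limma adjusted p = 0.00225) on the log2 scale.

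Complex II is also an enzyme of the citric acid cycle. Its 4 genes had a median log2 change of -0.13 in the cortex, where 1 fell, and of -0.16 in the thalamus, where 2 fell. Sdha (chromosome 1, 32971778 to 32997463), the flavoprotein that oxidizes succinate, was the one that fell in the cortex. It ranged from 13654 to 14401 normalized counts (median 13952) in sham cortex and from 11952 to 13389 (median 12365) in TBI cortex. In the thalamus the ranges were 15076 to 16667 (median 16405) and 12979 to 14505 (median 13698). The groups were apart in both regions, with log2 changes of -0.16 (SE 0.04, limma adjusted p = 0.00623) and -0.23 (SE 0.05, limma adjusted p = 0.00142). The cortex calls of Sdha and of Uqcrfs1, given below, were lost without the libraries of highest Ttr (limma adjusted p = 0.0698 and 0.0717).

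Sdhb, the iron-sulfur subunit, had 4694 to 5289 normalized counts (median 5084) in sham cortex and 4238 to 4927 (median 4593) in TBI cortex. It had 5419 to 6099 (median 5631) in sham thalamus and 4233 to 5559 (median 4956) in TBI thalamus. The groups overlapped in both regions. The log2 change was -0.12 (SE 0.05, limma adjusted p = 0.0771) in the cortex and -0.19 (SE 0.06, limma adjusted p = 0.0202) in the thalamus. The thalamus call of Sdhb was lost with TMM (adjusted p = 0.0768 by limma), with upper quartile scaling (0.174) and without the libraries of highest Ttr (0.0723). The membrane anchors Sdhc and Sdhd were not called in either region. Sdhc had log2 changes of -0.10 in the cortex and -0.09 in the thalamus, and Sdhd of -0.14 and -0.13.

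Complex III passes electrons from ubiquinol to cytochrome c. In the cortex 4 of its 8 genes fell (median -0.18), and in the thalamus 6 of 8 (median -0.25). Uqcrfs1 encodes the Rieske iron-sulfur protein. Its values were 4701 to 5225 (median 5140) in sham and 3745 to 4812 (median 4210) in TBI cortex, and 5579 to 6569 (median 6209) in sham and 4566 to 5440 (median 4968) in TBI thalamus. The TBI libraries were all below the sham range in the thalamus, and 5 of 6 were in the cortex. The log2 changes were -0.25 (SE 0.06, limma adjusted p = 0.00494) and -0.31 (SE 0.05, limma adjusted p = 0.000424).

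Uqcrc1, a core subunit, ranged from 6738 to 8181 (median 7849) in sham cortex and from 6184 to 7795 (median 7008) in TBI cortex, with a log2 change of -0.12 (limma adjusted p = 0.155). In the thalamus it ranged from 8150 to 9849 (median 9548) in sham and from 6660 to 8226 (median 7429) in TBI animals, with a log2 change of -0.33 (limma adjusted p = 0.000948). In the thalamus only sham rat 38 lay within the TBI range. Uqcrh, the hinge protein, had the lowest change of the complex in the cortex (-0.31, limma adjusted p = 0.00195) and the highest in the thalamus (-0.22, limma adjusted p = 0.0485). The thalamus call of Uqcrh was lost when any one of 9 of the 12 libraries was left out (all but sham rat 34 and TBI rats 24 and 56), with changes between -0.27 and -0.16. It was also lost with TMM (limma adjusted p = 0.131), with upper quartile scaling (0.209), without the libraries of highest Ttr (0.107) and, by less, with edgeR (0.0515). Uqcr10 and Uqcrq, small subunits, were not called in either region. The Uqcr10 locus spanned under 1 kb and its symbol also names a pseudogene in RefSeq, so it may not report the gene.

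**Figure D2:**
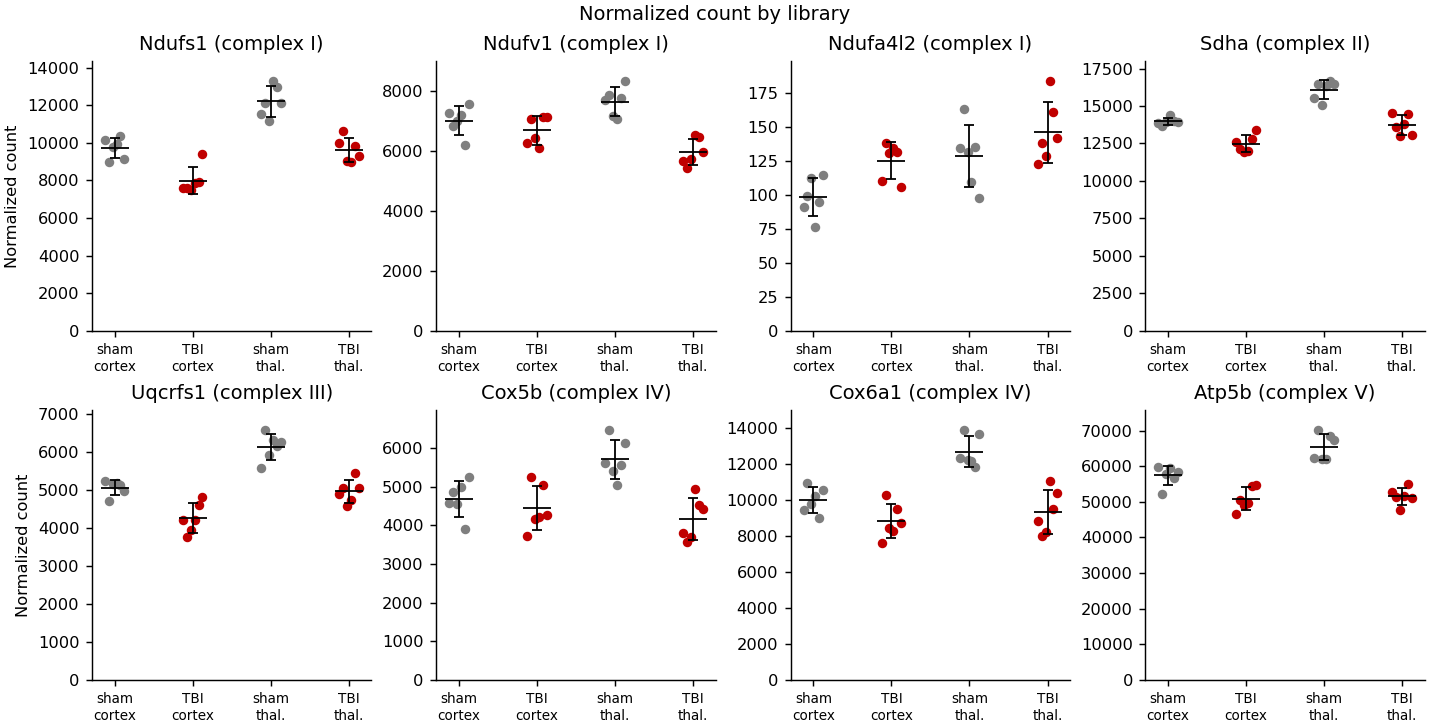
Normalized counts of 8 members in each library, with sham animals in grey, TBI animals in red, and bars for the mean and SD of 6 libraries. Ndufs1, Ndufv1, Sdha, Uqcrfs1, Cox5b, Cox6a1 and Atp5b are without overlap between the groups in the thalamus, whereas in the cortex only Sdha is, and Ndufa4l2 overlaps in both regions.

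Complex IV, cytochrome c oxidase, reduces oxygen to water. Of its 14 tested genes 6 fell in the cortex (median -0.17) and 8 in the thalamus (median -0.25). Cox4i1, the common form of a regulatory subunit, ranged from 16600 to 18622 (median 18200) in sham and from 14927 to 17837 (median 16336) in TBI cortex. In the thalamus it ranged from 15948 to 20118 (median 18281) in sham and from 13669 to 16399 (median 14511) in TBI animals. The ranges overlapped in both regions. The fitted change in log2 units was -0.13 (SE 0.05, limma adjusted p = 0.0759) in the cortex and -0.28 (SE 0.06, limma adjusted p = 0.00325) in the thalamus.

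Cox5a and Cox5b encode subunits of the oxidase that are made from nuclear DNA. Cox5a fell in both regions, by 0.25 in the cortex (limma adjusted p = 0.00397) and by 0.30 in the thalamus (limma adjusted p = 0.00275) on the log2 scale. Cox5b had the lowest log2 change of the complex in the thalamus. It ranged from 5060 to 6472 (median 5599) in sham and from 3584 to 4952 (median 4119) in TBI thalamus, without overlap. In the cortex it ranged from 3910 to 5248 (median 4725) in sham and from 3733 to 5262 (median 4249) in TBI animals, with nearly complete overlap. The log2 change was -0.46 (SE 0.08, limma adjusted p = 0.000731) in the thalamus and -0.08 (SE 0.09, limma adjusted p = 0.51) in the cortex. Its stretch printed above holds an ETS match.

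Cox7b, named here after its values were seen, had the lowest adjusted p of all members in the cortex (0.000776 by limma). It ranged from 4845 to 5899 (median 5486) in sham and from 3843 to 4782 (median 4370) in TBI cortex, and from 5825 to 7236 (median 6548) and from 4366 to 5341 (median 5165) in the thalamus. The groups did not overlap in either region, and the log2 changes were -0.34 (SE 0.06) and -0.37 (SE 0.06, limma adjusted p = 0.000549). The listed interval of Cox7b covered 3 loci.

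Complex V, ATP synthase, had 9 of its 14 genes called lower in each region (medians -0.18 and -0.24). Atp5b encodes the catalytic beta subunit. It ranged from 52310 to 59807 normalized counts (median 58116) in sham and from 46557 to 54748 (median 50148) in TBI cortex. In the thalamus it ranged from 62066 to 70175 (median 64763) in sham and from 47651 to 54908 (median 51509) in TBI animals. The cortex groups overlapped and the thalamus groups did not. The fitted log2 change was -0.18 (SE 0.05, limma adjusted p = 0.0183) in the cortex and -0.34 (SE 0.06, limma adjusted p = 0.000319) in the thalamus. Atp5a1, the alpha subunit that alternates with it in the catalytic head, fell by 0.18 (limma adjusted p = 0.0121) and by 0.31 (limma adjusted p = 0.000241) on the log2 scale. In the cortex the calls of Atp5b and Atp5a1 were lost with upper quartile scaling (limma adjusted p = 0.0773 and 0.0613) and without the libraries of highest Ttr (0.157 and 0.139).

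Atp5d encodes the delta subunit of the central stalk. In the thalamus it ranged from 5485 to 7541 (median 6376) in sham and from 3765 to 5845 (median 4583) in TBI animals, and 5 of 6 TBI values lay under all sham values. In the cortex it ranged from 4030 to 5791 (median 4946) in sham and from 3967 to 5665 (median 4565) in TBI animals. The log2 change was -0.48 (SE 0.10, limma adjusted p = 0.00154) in the thalamus, the lowest among the members, and -0.07 (SE 0.09, limma adjusted p = 0.624) in the cortex. Atp5j, a subunit of the peripheral stalk whose promoter stretch is shown above, fell by 0.29 (limma adjusted p = 0.00303) and by 0.27 (limma adjusted p = 0.00737) on the log2 scale. The thalamus call of Atp5j was lost with upper quartile scaling (limma adjusted p = 0.0571). Atp5g2, which encodes one of the forms of the c ring, was not called in either region, with log2 changes of 0.07 and -0.03.

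The 4 members kept apart from the subunits had a median log2 change of -0.095 in the cortex, where none was called by limma or edgeR and 1 had an unadjusted p under 0.05, and of -0.10 in the thalamus. There Atp5sl fell by 0.29 on the log2 scale (limma adjusted p = 0.0041), from a sham range of 1913 to 2476 to a TBI range of 1726 to 2080. Sdhaf1, Sdhaf2 and Atp5s had log2 changes of -0.08, -0.13 and -0.02 in the thalamus, none past the threshold by limma. For Sdhaf2 the limma adjusted p was 0.0517, with 0.0459 by edgeR and 0.0486 by limma with a mean of at least 50.

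The complexes were then compared within each library. The mean log2 level over a complex's tested subunits was set relative to its mean in the sham libraries of the region. Over all subunits the TBI cortex libraries lay between -0.28 and 0.0022, with a median of -0.15, and the sham libraries between -0.082 and 0.050, and 5 of 6 TBI libraries were under every sham library. In the thalamus the TBI libraries lay between -0.31 and -0.12, with a median of -0.27, and the sham libraries between -0.17 and 0.18, and 4 of 6 TBI libraries were under every sham library. Over all subunits TBI rat 22 had the lowest level and TBI rat 56 the highest among TBI animals in both regions. In the thalamus rat 22 (-0.307) and rat 45 (-0.306) were nearly equal. The mean of rat 45 includes its high Cox8b value, given below. Rat 45 was the lowest TBI thalamus library in complexes I (-0.381), II (-0.259), III (-0.365) and V (-0.336). It was also lowest in complex IV without Cox8b (-0.370). The lowest sham thalamus library had Cox8b at 0, and the 4 of 6 was not recomputed without Cox8b. As a share of all normalized counts of a library, the subunits took 1.02% to 1.13% in sham cortex and 0.961% to 1.12% in TBI cortex, and 1.10% to 1.36% in sham thalamus and 0.992% to 1.17% in TBI thalamus.

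Complex II stood slightly above the other complexes in the thalamus of TBI animals. Its relative level minus that of complex I was above 0 in 6 of 6 TBI libraries (median 0.086) and in 4 of 6 sham libraries (median 0.010). Against complex III it was above 0 in 6 of 6 TBI and 3 of 6 sham libraries (medians 0.10 and 0.0041), and against complex V in 6 of 6 and 4 of 6 (medians 0.085 and 0.011). Against complex IV it was above 0 in 5 of 6 TBI and 2 of 6 sham libraries, and in 6 of 6 and 3 of 6 without Cox8b, whose values are given below. In the TBI cortex the same differences from complexes I, III, IV without Cox8b and V were above 0 in 4, 4, 3 and 4 of 6 libraries, with medians between -0.0085 and 0.028. The sham levels define the zero of this scale, complex II rests on 4 genes, and these differences were described and not tested.

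**Figure D3:**
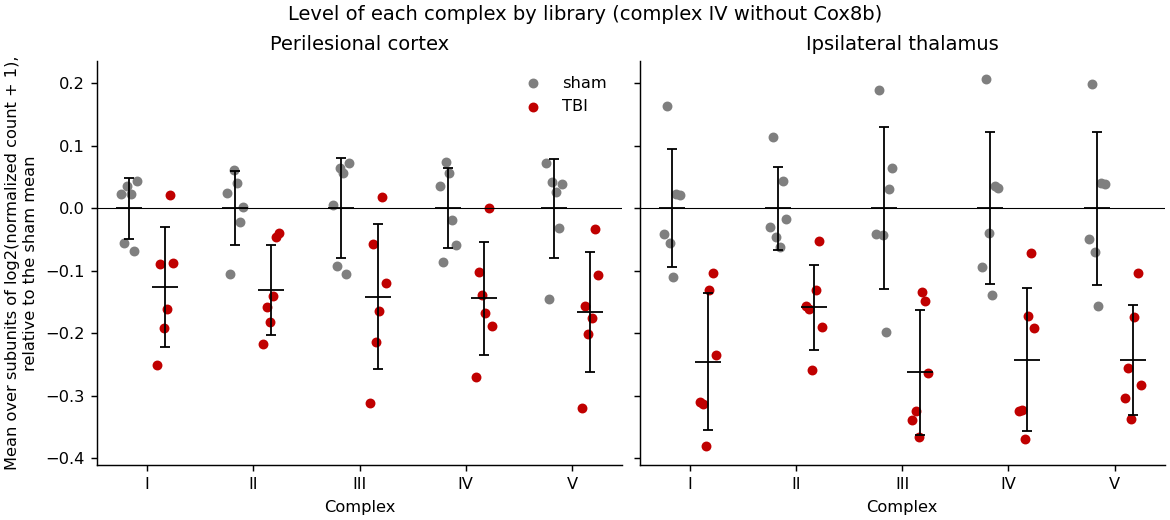
Mean log2 level of the tested subunits of each complex in each library, relative to the sham mean of the region, with 6 sham animals in grey and 6 TBI animals in red and with complex IV drawn without Cox8b. The bars give the mean and SD, and in the thalamus complex II of the TBI animals lies between -0.26 and -0.052 while complex I lies between -0.38 and -0.10.

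The difference between the regions was tested directly, as the TBI change in the thalamus minus the TBI change in the cortex over all 24 libraries. Of 80 members 1 was called, Ndufv1, with a difference of -0.29 (SE 0.08, limma adjusted p = 0.0287). Over all loci, 4.54% had a difference called lower in the thalamus and 2.72% one called higher. The 1.25% of members called lower was thus a smaller share than that of all loci. At an unadjusted p under 0.05 there were 17 of 80 members with a lower difference and 0 with a higher one. Over all loci there were 3497 of 15678, counted in both directions together, so the 2 shares are not of the same kind. The difference was below 0 for 62 of 80 members (median -0.069) and for 8297 of 15678 loci (median -0.015). With the rat as a block, which uses the fact that both regions came from the same animals, 2 members were called. The call for Ndufv1 was lost when any one of 5 of the 24 libraries was left out (sham cortex of rat 50, sham thalamus of rat 55, TBI cortex of rats 24 and 56, TBI thalamus of rat 24), with differences between -0.32 and -0.26. The differences for Atp5d (-0.41, limma adjusted p = 0.0743) and Cox5b (-0.38, limma adjusted p = 0.0643) did not pass the threshold, though both were called in the thalamus and not in the cortex. Both differences passed it when the sham cortex library of rat 55, the sham thalamus library of rat 38, the TBI cortex library of rat 22 or the TBI thalamus library of rat 52 was left out.

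In sham animals the same genes were compared between the regions. Of 80 members 34 were higher in thalamus than in cortex and 3 were lower, with a median log2 difference of 0.12, where 33.9% of all loci were higher and 28.3% lower. By complex, 16 of 36 genes of complex I were higher, 3 of 4 of complex II, 3 of 8 of complex III, 5 of 14 of complex IV and 6 of 14 of complex V. Of the 10 catalytic or core genes named by rule 8 were higher in the thalamus, among them Ndufs1 (0.33, limma adjusted p = 4.19e-05), Sdha (0.20, limma adjusted p = 0.00017), Uqcrfs1 (0.28, limma adjusted p = 6.09e-05), Atp5a1 (0.27, limma adjusted p = 7.89e-05) and Atp5b (0.19, limma adjusted p = 0.00368). The 3 lower genes were Sdhaf1, Atp5s and Uqcr11, with log2 differences of -0.27, -0.18 and -0.32. Cox4i1 did not pass the threshold (0.02, limma adjusted p = 0.828).

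Several subunits of complex IV exist in forms that differ between tissues. Ratios of paired genes were taken within each library, for the most part a minor form over a common one, which frees it of the scaling between libraries. Of 10 tests, over 5 pairs in 2 regions, 1 passed an exact two-sided permutation test with Benjamini-Hochberg adjustment. This was Cox6a2, a form known from heart and skeletal muscle, against Cox6a1 in the thalamus. There the log2 ratio lay between -8.88 and -8.14 in sham and between -7.48 and -6.66 in TBI animals. The mean difference was 1.498 (exact permutation p = 0.0022, the smallest that 6 against 6 allows; adjusted p = 0.0216). In the cortex the difference was 0.083 (exact permutation p = 0.379, adjusted p = 0.421).

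Both genes of the pair changed in the thalamus. Cox6a2 was listed as COX6A2, outside the symbols that defined the members. It had 24.9 to 47.5 normalized counts (35.5 ± 8.74, SD, n = 6) in sham and 61.0 to 94.1 (73.4 ± 12.0, SD, n = 6) in TBI thalamus, without overlap, and 178 to 248 and 174 to 222 in sham and TBI cortex. Its log2 change was 1.05 (SE 0.18, limma adjusted p = 0.000446) in the thalamus and -0.10 (limma adjusted p = 0.467) in the cortex. Cox6a1 ranged from 11796 to 13865 (median 12268) in sham and from 7960 to 11044 (median 9139) in TBI thalamus, with a log2 change of -0.45 (SE 0.08, limma adjusted p = 0.000539), and its listed interval covered 8 loci.

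The COX6A2 locus was listed at the same interval as Itgad, an integrin gene of leukocytes, whose own values lay between 0 and 7.34 normalized counts per library. Itgax, a further integrin gene that RefSeq places beside them, was at 1.06 to 7.51 in sham and 20.6 to 62.4 in TBI thalamus, and at 1.89 to 11.3 in sham and 8.33 to 41.6 in TBI cortex, where COX6A2 was not called. Whether fragments of these neighbours entered the COX6A2 value was not tested. Without the 3 thalamus libraries of highest Ttr the difference in the ratio was 1.36 with an adjusted p of 0.0635 by the same exact permutation test, where the smaller number of libraries limits the p that can be reached.

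The other 4 pairs were not called in either region. Their denominators had calls of their own. Cox6b1 fell by 0.16 in the cortex (limma adjusted p = 0.0344) and by 0.35 in the thalamus (limma adjusted p = 0.00104) on the log2 scale, Cox7a2 fell by 0.33 in the cortex (limma adjusted p = 0.0133) with a change of -0.20 in the thalamus (limma adjusted p = 0.171), and Cox8a fell by 0.22 in the thalamus (limma adjusted p = 0.025) with a change of -0.07 in the cortex. The cortex call of Cox6b1 was lost without any one of sham rats 26, 34, 38 and 50 or TBI rats 22, 45 and 52, and the thalamus call of Cox8a without any one of sham rats 32 and 55 or TBI rats 22 and 24. With upper quartile scaling, and again without the libraries of highest Ttr, the cortex calls of Cox6b1 (limma adjusted p = 0.168 and 0.269) and Cox7a2 (0.0507 and 0.147) and the thalamus call of Cox8a (0.144 and 0.083) were lost, the last also with TMM (0.0792). Cox4i2, a form of the regulatory subunit known from lung and linked to low oxygen, was at 60.9 to 115 normalized counts over all libraries, and its log2 ratio to Cox4i1 differed by 0.15 in the cortex (exact permutation adjusted p = 0.421) and by 0.25 in the thalamus (exact permutation adjusted p = 0.146). Cox6b2, known from testis, against Cox6b1 differed by 0.36 and 0.45 (exact permutation adjusted p = 0.203 and 0.146). Cox7a2l, a factor that joins complexes III and IV into supercomplexes and not a tissue form, against Cox7a2 differed by 0.22 and 0.12 (exact permutation adjusted p = 0.146 and 0.267). Sorted by symbol, Cox7a2l stayed among the complex IV genes counted above. Cox7a1 was not matched to a locus.

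Cox8b, the muscle form paired with Cox8a, varied widely between libraries. It was at 11.2 to 16.1 normalized counts in sham and 4.87 to 23.8 in TBI cortex. In the thalamus it was at 168 in TBI rat 45 and 3.44 to 7.94 in the other TBI animals, and at 65.1 in sham rat 50, 28.8 in sham rat 34, 0 in sham rat 38 and 6.68 to 11.7 in the other sham animals. Ttr was at 229743, 97841 and 60767 normalized counts in the thalamus libraries of TBI rat 45, sham rat 50 and sham rat 34, and at 145 to 1087 in the other 9. The libraries highest in Cox8b were thus those highest in Ttr, and the part of choroid plexus in the Cox8b values was not tested. The log2 ratio to Cox8a differed by -0.36 in the cortex and 0.23 in the thalamus (exact permutation adjusted p = 0.383 and 0.866).

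**Figure D4:**
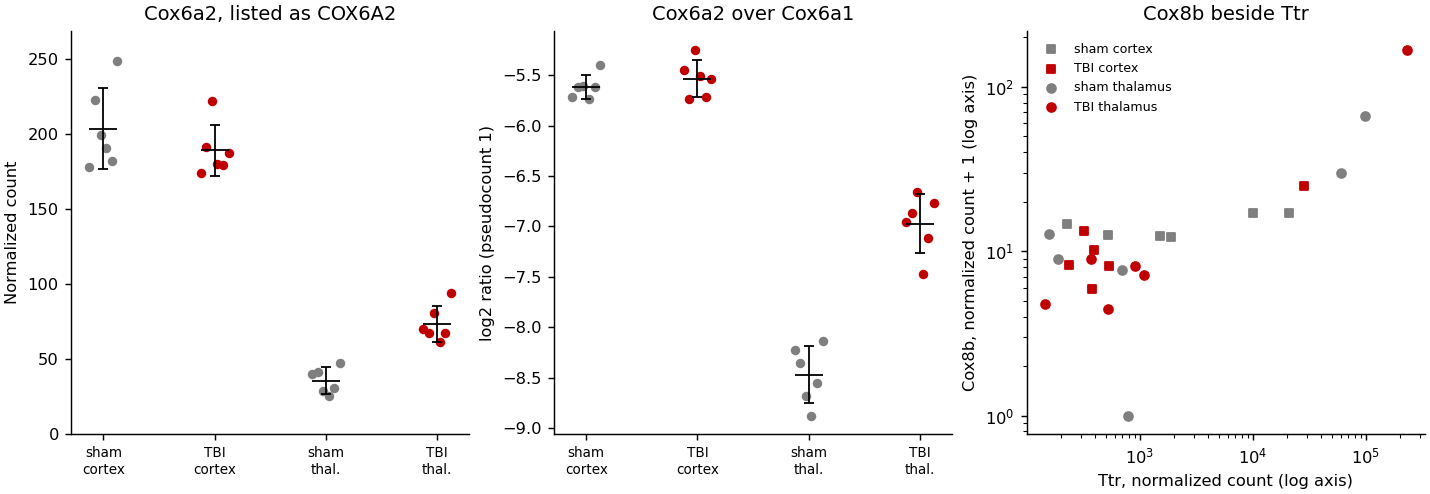
COX6A2 normalized counts by group, the log2 ratio of Cox6a2 to Cox6a1 by group, and Cox8b against Ttr in each library on log axes, with sham animals in grey and TBI animals in red and bars for the mean and SD of 6 libraries. The TBI thalamus libraries lie above all sham thalamus libraries in the first and second panels, and the 3 thalamus libraries with Ttr at 60767 or more hold the 3 highest Cox8b values.

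The genes that build or surround the chain were read from lists, and each count stands against the shares of all loci that fell (14.9% in the cortex, 20.9% in the thalamus) and rose (14.3% and 14.5%). Of 43 tested assembly factors 14 fell in the cortex (median -0.12), and 20 fell and 2 rose in the thalamus (median -0.17). In the thalamus those that fell were 6 of 13 for complex I, 1 of 3 for complex II, 2 of 5 for complex III, 8 of 18 for complex IV and 3 of 4 for complex V. The list includes Sdhaf1, Sdhaf2 and Atp5sl from the members kept apart, so the thalamus call of Atp5sl is counted here again. Atpaf1, which places the beta subunit into ATP synthase, fell from 6799 ± 812 normalized counts in sham to 4367 ± 220 in TBI thalamus (SD, n = 6; log2 change -0.63, limma adjusted p = 1.8e-05), and from 4138 ± 175 to 3420 ± 333 in the cortex (-0.28, limma adjusted p = 0.0037). The difference of its change between the regions was called (-0.35, limma adjusted p = 0.0263).

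Ttc19, a factor of complex III, and Ndufaf4, a factor of complex I, fell in both regions. Ttc19 had log2 changes of -0.26 in the cortex and -0.40 in the thalamus, and Ndufaf4 of -0.34 and -0.39. Cox10, which makes heme for complex IV, fell by 0.37 on the log2 scale in the thalamus (limma adjusted p = 0.00018), where its change in the cortex was -0.08 and the difference was called (-0.29, limma adjusted p = 0.016). The 2 that rose in the thalamus were Nubpl (0.27, limma adjusted p = 0.0152), which delivers iron-sulfur clusters to complex I, and Cox20 (0.18, limma adjusted p = 0.0119), a chaperone of complex IV.

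Among 11 genes of electron carriers, 1 fell in the cortex (9.09%, where 14.9% of all loci fell), and 6 fell and 1 rose in the thalamus (54.5% fell, where 20.9% of all loci did). Cycs, somatic cytochrome c, fell in both, from 6850 ± 984 to 5090 ± 1449 normalized counts in the cortex (SD, n = 6; log2 change -0.46, limma adjusted p = 0.0311) and from 6694 ± 1101 to 4840 ± 703 in the thalamus (-0.47, limma adjusted p = 0.00469). Cyct, the testis form, rose in the thalamus from 187 ± 25.8 to 262 ± 35.5 (SD, n = 6; 0.49, limma adjusted p = 0.00433), and its change differed between the regions (0.52, limma adjusted p = 0.0179).

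Of 12 regulators of mitochondrial biogenesis, 3 fell and 1 rose in the cortex, and 4 fell and 1 rose in the thalamus. These counts rest on few genes and stand beside 14.9% and 20.9% of all loci that fell. Ppargc1a, the coactivator PGC-1 alpha, fell from 2446 ± 184 to 1906 ± 286 normalized counts in the cortex (SD, n = 6; log2 change -0.37, limma adjusted p = 0.00678) and from 2703 ± 366 to 1659 ± 117 in the thalamus (-0.70, limma adjusted p = 2.4e-05). Esrra, a nuclear receptor that it coactivates, fell in the thalamus from 2076 ± 185 to 1271 ± 256 (-0.73, limma adjusted p = 0.000311) but had a log2 change of -0.07 in the cortex, and the difference was called (-0.66, limma adjusted p = 0.0161). Tfb1m and Tfb2m, factors named for transcription of mitochondrial DNA, fell in both regions. Nrf1 rose in the cortex (0.22, limma adjusted p = 0.0238) and Gabpa in the thalamus (0.26, limma adjusted p = 0.0223). Tfam and Yy1 were not called.

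Other mitochondrial lists were read the same way. Of 15 genes of mitochondrial membranes, 8 fell in the cortex (median -0.18) and 10 in the thalamus (median -0.24), among them Slc25a4, the ADP and ATP carrier (-0.18 and -0.37), and Opa1, a fusion protein of the inner membrane (-0.21 and -0.27). Of 68 mitochondrial ribosomal protein genes, 13 fell (19.1%, near the 14.9% of all loci) and 1 rose in the cortex (median -0.088), and 27 fell (39.7%, against 20.9%) and 1 rose in the thalamus (median -0.13). Of 87 cytosolic ribosomal protein genes tested in the cortex, 16 rose (18.4%, near the 14.3% of all loci) and 1 fell (median 0.095), and of 86 tested in the thalamus 23 rose (26.7%, against 14.5%) and 1 fell (median 0.14). Of 4 tested loci with names of mitochondrially encoded genes, 0 were called by limma or edgeR in either region, and 0 had an unadjusted p under 0.05. Their medians were -0.45 in the cortex and 0.11 in the thalamus. The level was low: the 5 matched loci summed to 684 to 1639 normalized counts in sham and 787 to 1256 in TBI cortex. In the thalamus they summed to 489 to 1438 in sham and 616 to 1380 in TBI animals. Cox4i1 alone stood at 13669 to 20118 over both thalamus groups. Whether these loci report the genes of mitochondrial DNA was not tested.

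**Figure D5:**
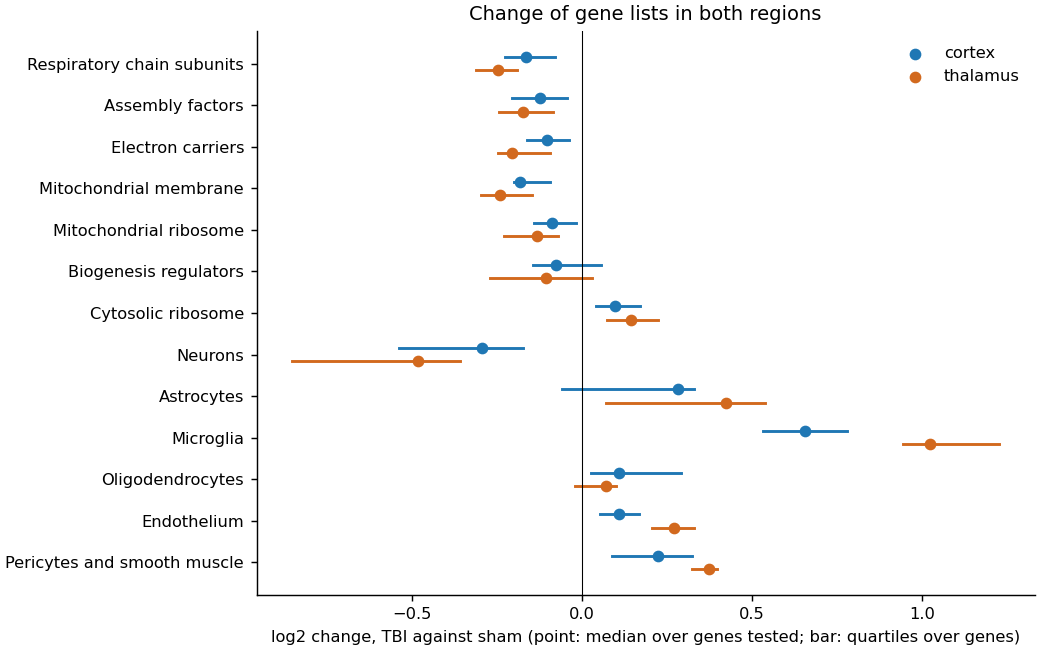
Median log2 change between TBI and sham animals of each list of genes in the cortex and the thalamus, with lines for the lower and upper quartile over its tested genes. The respiratory chain subunits, assembly factors, electron carriers and genes of mitochondrial membranes and ribosomes have medians below 0 in both regions, neuronal markers lie lower at -0.29 and -0.48, and microglial markers lie at 0.66 and 1.02.

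Markers of neurons and microglia moved with the injury in the same libraries. Over all loci 14.9% fell and 14.3% rose in the cortex, and 20.9% fell and 14.5% rose in the thalamus. Of 15 neuronal markers 11 fell in the cortex (median log2 change -0.29) and 13 in the thalamus (median -0.48). Their summed level was 341340 to 434720 normalized counts in TBI and 465520 to 494780 in sham cortex, and 208560 to 263910 in TBI and 312660 to 371540 in sham thalamus. Of 13 microglial markers 12 rose in the cortex (median 0.66) and 13 in the thalamus (median 1.02), with summed levels of 23364 to 26214 in TBI and 16664 to 17612 in sham cortex and of 36453 to 46545 in TBI and 17708 to 22784 in sham thalamus. Both lists were without overlap between TBI and sham animals in both regions.

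Astrocyte markers rose in 5 of 9 cases in each region, and 2 fell in the cortex. Oligodendrocyte markers rose in 3 of 7 cases in the cortex and in none in the thalamus, endothelial markers in 1 and 3 of 7, and pericyte and smooth muscle markers in 2 and 5 of 7. These lists hold few genes, and the endothelial share in the cortex (14.3%) was that of all loci that rose there. Of 7 tested markers of striated muscle 1 fell in the thalamus (14.3%, where 20.9% of all loci fell). None of 6 choroid plexus markers was called by limma or edgeR, with 1 at an unadjusted p under 0.05 in the cortex. No list of markers was at 0 in all libraries. The part of the changed cell make-up in the fall of the respiratory chain genes was not tested.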

How the data were processed

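The 24 libraries were polyA RNA of cortex and thalamus from 6 TBI and 6 sham rats, prepared with a stranded kit and grouped by the labels. Per the submitters' processing notes, the authors used TopHat2 2.0.11, Bowtie2 2.2.2 and Cufflinks 2.2.1 with Cuffdiff and the genome Rnor 5.0, whereas the study's methods name another genome release beside this annotation, so the build of the listed positions is uncertain. The deposited table holds a normalized count signal for each of 42334 assembled loci, of which 26641 are named. The 15693 loci without a name held 1.90% to 2.23% of the values and stayed out. In the deposited signal, 99.97% to 99.99% of values were whole multiples of 1 fragment within 0.1, which gave 30568926 to 54608921 fragments per library. Intervals listed for loci can span several genes. For 21 members the interval is also listed for at least 1 other locus, 7 members spanned over 100 kb, 7 under 1 kb, and 5 bore a symbol that RefSeq also gives to a pseudogene.

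Linear models of log2(normalized count + 1) were made with limma 3.58.1 under R 4.3.3, letting the prior variance follow the mean level (lmFit, then eBayes), over all named loci with a mean of at least 10, with Benjamini-Hochberg adjustment over all of them and a threshold of 0.05. No covariate was used. Isoform ratios were tested by exact two-sided permutation. Both regions came from the same rats, and after group means were taken away a rat's cortex and thalamus correlated at 0.0039 to 0.569 (median 0.187), so the rat was a block in an alternative fit. edgeR 4.0.16 was run on the recovered fragments, an alternative added after the data were seen, and called 34 members lower and 1 higher in the cortex and 54 lower in the thalamus. Fits were checked on simulated data. No 2 libraries held identical values.

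Genes named with values were, per complex and region, the lowest and highest log2 change, 10 catalytic or core subunits, isoform pairs, members with a called difference between regions, members called against their complex's median and members kept apart. Members and lists were chosen with earlier results of these data known, and no list was tested as a set. Figures were drawn with matplotlib 3.10.9 in Python 3.11.15. Counts and floors cover counting error only.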

Additional observations from a re-analysis of the deposited data

Results flagged for a closer look

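Among 124 groups of 6 libraries tested over the named members, 6 held a highest or lowest library far from the others, with a gap over range above Dixon's critical value for 6 samples, where about 1 in 20 groups is expected to by chance. Cox8b in TBI thalamus had a gap of 0.808, with rat 45 at 168 normalized counts and the others at 3.44 to 7.94. Ndufs1 in TBI cortex had a gap of 0.778, with rat 63 at 9406 and the others at 7514 to 7899. In sham thalamus rat 38 was low for Uqcr10 (gap 0.775, 305 against 580 to 700) and for Uqcrc1 (gap 0.756, 8150 against 9405 to 9849), and rat 32 was high for Atp5j (gap 0.666, 6707 against 5079 to 5574). In sham cortex rat 32 was low for Sdhc (gap 0.666, 4825 against 5482 to 5845). Ndufv1 was the 1 member whose TBI change differed between the regions by a test of the difference itself (-0.29 on the log2 scale, limma adjusted p = 0.0287).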

How the results depend on the processing

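The medians of complexes I to V stayed below 0 in both regions under every alternative run. Of 654 recomputed values of comparisons, 613 were taken as the same and 41 were not. A count was the same if within 1.5 times that of the report, so single calls could change. A complex median was the same if its sign held and it moved by less than 1 SD over the TBI libraries. An isoform ratio was the same if its sign and call held. Of 1817 recomputed values of named genes, 1703 kept their sign and call and 114 did not. Of these, 58 lost a call, 24 gained one and 32 changed sign. Members fallen in the cortex, 36 in the report, were 16 with upper quartile scaling, 14 at an adjusted p under 0.01, 8 without the 3 libraries of highest Ttr and 0 with a 1.5-fold minimum, and 27 to 44 without each library in turn. Members fallen in the thalamus, 54 in the report, were 31 with upper quartile scaling and 0 with a 1.5-fold minimum, and 45 to 60 without each library in turn. The 1 member that rose in the cortex became 0 at an adjusted p under 0.01, with a 1.5-fold minimum, without a filter on low values, without the libraries of highest Ttr and without members on a shared interval, and ranged from 0 to 1 without each library in turn. With 8 symbols in capitals included, 1 rose in the thalamus and 1 had a difference between regions called higher. Members with a difference called lower were 0 at an adjusted p under 0.01 and with a 1.5-fold minimum, 2 with the rat as a replicate block (the other being Atp5sl), and 0 to 5 without each library in turn, with 0 in the 5 cases named for Ndufv1, 2 without TBI cortex rat 52, 3 without sham cortex rat 55, 4 without sham thalamus rat 38 or TBI thalamus rat 52, and 5 without TBI cortex rat 22. The block changed no other count by over 1.5 times. Between sham regions, members higher in the thalamus were 0 with a 1.5-fold minimum and 29 to 40 without each library, and members lower were 5 with TMM, 0 with a 1.5-fold minimum, 1 without shared intervals and 2 to 4 without each library. The Cox6a2 to Cox6a1 difference was 1.36 (exact permutation adjusted p = 0.0635) without the libraries of highest Ttr. The Cox8b to Cox8a difference ran from -0.61 to -0.19 in the cortex, past the threshold without TBI rat 45, and from -0.57 to 0.77 in the thalamus. Alternatives with Ttr, symbols in capitals, shared intervals, edgeR and TMM over 24 libraries were chosen after seeing the data. The cause was not tested, except that stricter thresholds leave fewer calls by construction. Fewer libraries can also leave fewer calls, but the counts of fallen members without each library ran both below and above those of the report.

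Changes of sign occurred for values without a call. In the thalamus Atp5g2 was 0.0235 with TMM and 0.0389 with upper quartile scaling, Atp5s 0.0255 and 0.0409 (-0.0578 to 0.0072 without each library), Cox4i2 0.0098 and 0.0250 (-0.0954 to 0.0443), Cox6b2 -0.0085 to 0.192, and Cox8b -0.0709 with a pseudocount of 5 (-0.77 to 0.54). In the cortex Atp5sl was 0.0257 with upper quartile scaling (-0.1067 to 0.0135), Cox4i2 ranged from -0.0343 to 0.1309 and Uqcr10 from -0.0009 to 0.13. Cox4i1 between sham regions was -0.0180 with TMM, -0.0045 with TMM over 24 libraries and -0.0016 with upper quartile scaling (-0.0175 to 0.0495).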
